A study of Mus musculus with 8 samples.

Results

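The transcripts described here are those of the NF-kB transcription factors and of the IkB proteins that hold them in check, in pro-B cells of mice by their label. The 10 genes were chosen by symbol: the 5 subunit genes Nfkb1, Nfkb2, Rel, Rela and Relb, the 3 classical inhibitor genes Nfkbia, Nfkbib and Nfkbie, and the nuclear IkB genes Nfkbid and Nfkbiz. All 10 were found among the 55487 genes of the count table, and all 10 passed the filter on low counts. RNA was sequenced from 4 libraries labelled CD25 knockout (KO 1 to 4) and 4 labelled wild type (WT 1 to 4), with 43974037 to 57988772 fragment counts each. Il2ra encodes CD25, a chain of the receptor for interleukin-2. The labels give no other allele, treatment, strain, age or sex, do not say how the knockout was made, and leave unsaid whether each library had its own mouse. The p-values therefore cover only the spread between these libraries, part of which may be technical. Within each group some libraries held Y-linked counts and others almost none (below), so the libraries of a group did not all come from the same mouse.

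NF-kB factors are dimers of Rel family proteins. In resting cells the classical IkB proteins bind the dimers through ankyrin repeats and keep them out of the nucleus. Signals from antigen receptors, Toll-like receptors and the tumour necrosis factor receptor family activate IkB kinase, which marks the inhibitors for destruction and frees the dimers. The freed dimers switch on the genes of several of their own inhibitors and subunits, a feedback best known for Nfkbia. In B lineage cells the pathway serves survival and the response to antigen receptor signals.

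Several features of the libraries bear on every value below. Il2ra had 144.7, 168.3, 243.7 and 168.3 CPM (counts scaled to library size with TMM factors) in KO 1 to 4, against 200.2, 216.4, 215.6 and 140.4 CPM in WT 1 to 4. The groups overlapped, and counts summed over all exons do not show whether single exons were missing, so the libraries are called labelled KO. The B lineage genes Cd79a and Cd79b stood at 1753 CPM or more in every library, whereas Kit, a receptor of the earliest B lineage stages, had 0.701 to 1.69 CPM in the libraries labelled KO and 0.896 to 3.20 CPM in wild type. Of 12 B lineage genes, 1 was higher and 2 were lower at an unadjusted p under 0.05, and none passed the test. The higher one was Ebf1, a B lineage transcription factor, with a log2 fold change of 0.40 ± 0.13 (SE; adjusted p = 0.391, edgeR). The surrogate light chain genes Igll1 and Vpreb1, which mark early B lineage stages, had log2 fold changes of -0.91 ± 0.40 and -0.86 ± 0.38 (SE; adjusted p = 0.393 for both, edgeR). Igll1 had 38.8 to 159 CPM in the libraries labelled KO and 88.6 to 206 CPM in wild type, and Vpreb1 had 30.8 to 107 CPM in the libraries labelled KO and 58.8 to 151 CPM in wild type. What part these stage markers have in the values below was not tested. The sum of 4 Y-linked genes was 505 CPM in KO 2, 505 CPM in KO 4 and 483 CPM in WT 2, and at most 2.79 CPM in the other 5 libraries. WT 2 also held 60.0 CPM of Xist, so it carried both kinds of sex-linked transcript. The last feature is a dependence on base composition: among the 3762 tested genes with the highest transcript GC (54.3% or more), the median deviation from the mean of the 8 libraries was 0.18, 0.04, 0.15 and 0.06 on the log2 scale in KO 1 to 4, against -0.10, -0.27, -0.04 and 0.10 in WT 1 to 4.

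Sequences upstream of the genes were available for 7 members, as windows from 250 bases before to 50 bases after a RefSeq start site (GRCm38.p6, the build of the counts). Each gene's span is given from the annotation: Nfkbia at chr12:55489410-55492647 and Nfkbib at chr7:28758251-28767512, both on the minus strand, and Nfkbid at chr7:30421732-30428746, Nfkb2 at chr19:46304320-46312385 and Nfkbie at chr17:45555703-45563169, all on the plus strand. The windows below include those of Nfkbia, Nfkbid and Nfkb2, whose values varied together, and of Nfkbie, whose groups did not overlap. Nfkbia, Nfkbid and Nfkb2 were each closer in pattern to some genes outside the family than to one another. Nfkbib is shown as a member in which the motif was not matched, though its values varied with those of Nfkbia as well. Capitals mark the NF-kB consensus decamer on either strand, with overlapping matches merged.
Nfkbia, chr12:55492598-55492897, minus strand: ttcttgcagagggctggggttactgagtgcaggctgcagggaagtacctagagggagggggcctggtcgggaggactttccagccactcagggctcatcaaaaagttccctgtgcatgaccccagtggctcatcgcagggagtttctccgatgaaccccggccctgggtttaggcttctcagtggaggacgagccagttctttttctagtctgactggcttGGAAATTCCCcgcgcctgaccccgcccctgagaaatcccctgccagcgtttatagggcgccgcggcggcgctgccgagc
Nfkbid, chr7:30422156-30422455, plus strand: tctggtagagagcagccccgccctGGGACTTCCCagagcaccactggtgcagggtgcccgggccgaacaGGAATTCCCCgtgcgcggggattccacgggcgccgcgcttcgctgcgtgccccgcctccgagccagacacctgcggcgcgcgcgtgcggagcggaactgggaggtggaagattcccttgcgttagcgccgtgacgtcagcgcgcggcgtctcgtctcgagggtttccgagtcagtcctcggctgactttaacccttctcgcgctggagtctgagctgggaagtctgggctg
Nfkb2, chr19:46304487-46304786, plus strand: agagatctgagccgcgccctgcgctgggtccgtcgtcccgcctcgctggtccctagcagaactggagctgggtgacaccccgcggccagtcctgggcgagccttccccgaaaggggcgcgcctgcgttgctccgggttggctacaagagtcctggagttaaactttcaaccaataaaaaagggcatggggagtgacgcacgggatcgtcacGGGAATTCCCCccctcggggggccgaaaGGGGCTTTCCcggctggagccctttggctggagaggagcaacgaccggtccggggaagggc
Nfkbie, chr17:45555450-45555749, plus strand: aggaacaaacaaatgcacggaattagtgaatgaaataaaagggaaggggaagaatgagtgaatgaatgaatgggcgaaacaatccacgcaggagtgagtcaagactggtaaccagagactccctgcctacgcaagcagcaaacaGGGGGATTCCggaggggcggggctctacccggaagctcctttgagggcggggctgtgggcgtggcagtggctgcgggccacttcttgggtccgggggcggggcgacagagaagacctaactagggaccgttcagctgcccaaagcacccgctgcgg
Nfkbib, chr7:28766595-28766894, minus strand: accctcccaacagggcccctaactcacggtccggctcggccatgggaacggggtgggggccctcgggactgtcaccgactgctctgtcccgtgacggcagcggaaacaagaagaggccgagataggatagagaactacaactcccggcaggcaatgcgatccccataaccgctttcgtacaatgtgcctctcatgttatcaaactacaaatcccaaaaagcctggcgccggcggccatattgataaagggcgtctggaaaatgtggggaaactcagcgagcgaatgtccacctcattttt
In the Nfkbia window the decamer GGAAATTCCC lay 29 to 20 bases upstream of the start site. For Nfkb2, the window shown is that of the first of 3 annotated start sites, and all 3 windows had matches. It held GGGAATTCCC 39 to 30 bases upstream, GGAATTCCCC shifted from it by 1 base, and GGGGCTTTCC 11 to 2 bases upstream. For Nfkbid, the second of 3 annotated start sites had GGGACTTCCC 226 to 217 and GGAATTCCCC 181 to 172 bases upstream, and the windows of the other start sites had no match. Nfkbie held GGGGGATTCC 106 to 97 bases upstream. Counting Rel as well, 5 of 7 members and 7 of their 11 windows (some of which overlap) held the decamer, against 8.5% of all 32851 windows and 12.5% of the 14253 windows with a GC content of at least 55%. Rela and Nfkbib had no match within their windows. A match describes letters and not binding, which was not measured.

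Levels were set side by side per kilobase of exon (RPKM from TMM-scaled counts, with the exon length in the table). Nfkbia, the inhibitor resynthesised fastest after activation, had the highest level, 400 ± 65.7 RPKM in the libraries labelled KO and 227 ± 119 RPKM in wild type (SD, n = 4 each). Nfkbie came next, with 80.8 ± 11.9 RPKM in the libraries labelled KO and 60.5 ± 12.9 RPKM in wild type (SD, n = 4 each). Nfkbia was above Nfkbie, and Nfkbie above Rela, in 8 of 8 libraries. Rela, the subunit with a strong activation domain, had 42.7 ± 6.66 RPKM in the libraries labelled KO and 35.4 ± 1.19 RPKM in wild type (SD, n = 4 each), and led the subunits per kilobase. The exon length pools all annotated exons of a gene, 12061 bases for Nfkb1 against 3072 for Rela. In CPM, which is not divided by length, Nfkb1 was above Rela in 8 of 8 libraries. The order of levels and the shares below thus depend on these lengths.

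The neighbours further down were not separated by their spread. Rela was above Nfkbid in 6 of 8 libraries, Nfkbid above Nfkbib in 2 of 8, Nfkb1 above Nfkb2 in 4 of 8, Nfkb2 above Rel in 4 of 8, Rel above Relb in 6 of 8 and Relb above Nfkbiz in 5 of 8. Nfkbib was above Nfkb1 in 7 of 8 libraries. Means over the 8 libraries were 12.98 RPKM for Nfkb1, 12.2 RPKM for Nfkb2 and 10.5 RPKM for Rel. Relb, the partner of the processed Nfkb2 product in the non-canonical pathway, averaged 5.65 RPKM, and Nfkbiz 4.15 RPKM. Of the summed subunit RPKM, Rela made up 47.2 ± 4.53% in the libraries labelled KO and 51.1 ± 5.56% in wild type, and Nfkb2 made up 17.0 ± 4.85% in the libraries labelled KO and 11.6 ± 7.18% in wild type (SD, n = 4 each). Within the inhibitors, Nfkbia made up 71.1 ± 1.92% in the libraries labelled KO and 66.2 ± 5.19% in wild type (SD, n = 4 each).

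**Figure D1:**
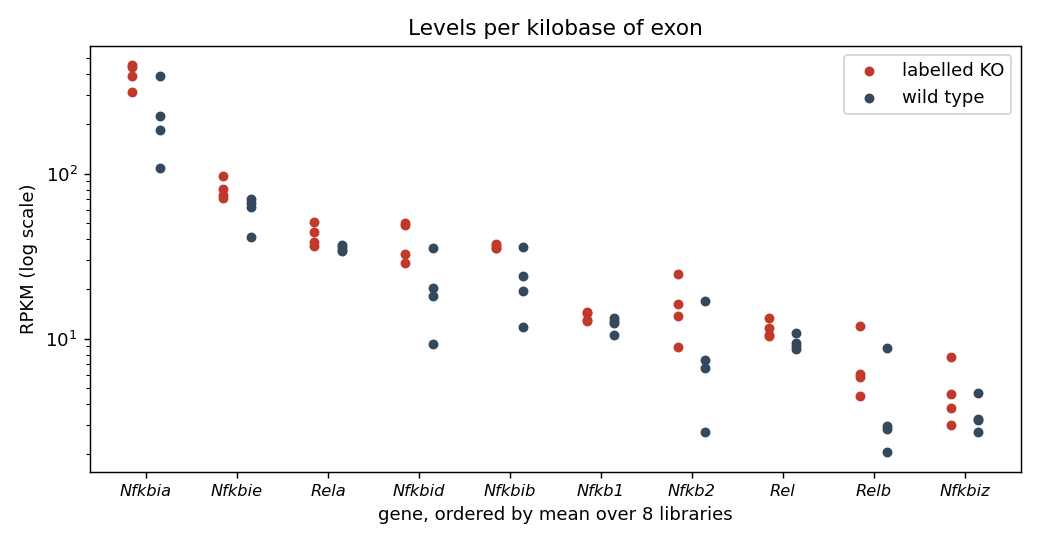
RPKM of the 10 genes on a log scale, ordered by their mean over the 8 libraries; each point is 1 library, labelled KO in red and wild type in dark blue. Nfkbia stands above Nfkbie, and Nfkbie above Rela, in every library, while the points of Nfkb1, Nfkb2 and Rel overlap.

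For the genotype comparison, all 10 members had a fitted value higher in the libraries labelled KO, where 50.4% of the 18884 genes tested did. None passed the quasi-likelihood test of edgeR, adjusted by Benjamini-Hochberg over all genes (adjusted p from 0.391 to 0.511, threshold 0.05), and 0.00% of all genes passed. At an unadjusted p under 0.05 stood 6 members, all of them higher, against 5.53% of all genes on the higher side, 7.11% on the lower side and 12.6% on either side. They were Rel, Rela, Nfkbia, Nfkbib, Nfkbie and Nfkbid. The members' median log2 fold change was 0.57, against 0.00 over all genes tested. DESeq2, which called 0.0318% of genes, and limma-voom also called 0 members, with 5 and 6 at an unadjusted p under 0.05. Of all genes, 14% with DESeq2 and 19.9% with limma-voom were at that p. The 6 of 10 were reduced to 0 without KO 3, to 1 without KO 1, to 2 without WT 1 and to 1 without WT 3. The share of all genes at that p fell as well, to 6.07%, 6.11%, 9.92% and 7.05% in that order.

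The subunit genes with the higher fitted differences were those of the non-canonical pathway, Nfkb2 and Relb, though neither was at an unadjusted p under 0.05 (edgeR). Nfkb2, which encodes the precursor of the p52 subunit, had 113.9, 40.67, 74.17 and 63.07 CPM in KO 1 to 4, against 30.34, 12.48, 34.21 and 78.20 CPM in WT 1 to 4. WT 4 was above all libraries but KO 1, and WT 2 was the lowest. The log2 fold change was 0.91 ± 0.49 (SE; adjusted p = 0.448, edgeR). Some of its exon bases, 531 and 299, are shared with 2 genes on the opposite strand, whose reads cannot be told apart without a strand setting. Relb had 46.66, 17.52, 22.84 and 23.74 CPM in KO 1 to 4, against 11.09, 7.99, 11.52 and 34.35 CPM in WT 1 to 4. It had the same highest pair, KO 1 and WT 4, with a log2 fold change of 0.77 ± 0.47 (SE; adjusted p = 0.489, edgeR). These 2 genes had the widest 95% intervals of the 10, from 0.878-fold to 4.02-fold for Nfkb2 and from 0.824-fold to 3.53-fold for Relb.

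The other subunits had smaller fitted differences, and of these Rel and Rela were at an unadjusted p under 0.05 (edgeR). Nfkb1, which encodes the precursor of the p50 subunit, had 172.2, 156.9, 175.2 and 155.4 CPM in KO 1 to 4, against 155.7, 160.3, 150.1 and 127.3 CPM in WT 1 to 4. The groups overlapped and the log2 fold change was 0.15 ± 0.10 (SE; adjusted p = 0.511, edgeR). Rel encodes c-Rel, the subunit prominent in lymphocytes, and had 77.93, 79.17, 99.24 and 87.26 CPM in KO 1 to 4, against 80.59, 67.90, 70.81 and 64.40 CPM in WT 1 to 4. WT 1 lay above KO 1 and KO 2, and the log2 fold change was 0.28 ± 0.12 (SE; adjusted p = 0.391, edgeR). Rela had 136.3, 119.2, 157.8 and 111.7 CPM in KO 1 to 4, against 110.5, 106.4, 113.1 and 105.1 CPM in WT 1 to 4. Of the libraries labelled KO only KO 4 was below the highest wild type value, and the log2 fold change was 0.27 ± 0.12 (SE; adjusted p = 0.391, edgeR). With the GC trend removed from each library, the value for Rela was -0.06 ± 0.15 (SE; adjusted p = 0.895, edgeR), so its direction turned.

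Among the classical inhibitors, Nfkbia had 718.1, 501.9, 731.4 and 627.2 CPM in KO 1 to 4, against 296.7, 175.1, 358.2 and 628.7 CPM in WT 1 to 4. WT 4 lay within the range of the libraries labelled KO, and the other 3 wild type libraries lay below all of them. The log2 fold change was 0.82 ± 0.32 (SE; 95% interval from 0.10 to 1.54; adjusted p = 0.391, edgeR). Nfkbib, an inhibitor that responds more slowly to activation, had 81.58, 80.74, 76.92 and 77.52 CPM in KO 1 to 4, against 42.26, 25.58, 51.86 and 78.01 CPM in WT 1 to 4. WT 4 lay above KO 3 and KO 4, and the other 3 wild type libraries lay below all 4 labelled KO. Its 4 values in the libraries labelled KO differed by a coefficient of variation of 2.92%, against 44.4% in wild type. The log2 fold change was 0.68 ± 0.27 (SE; adjusted p = 0.391, edgeR). Its exons share 314 and 42 bases with Ccer2 and Sirt2 on the opposite strand.

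Nfkbie was the 1 member whose groups did not overlap, and it was higher in the libraries labelled KO. Of all genes, 2.62% had groups apart on the higher side, 4.17% on the lower side and 6.79% on either side. It had 245.9, 224.9, 297.1 and 216.0 CPM in KO 1 to 4, against 203.2, 126.8, 214.1 and 192.3 CPM in WT 1 to 4. KO 4 exceeded WT 3 by less than 2 CPM, and the log2 fold change was 0.42 ± 0.17 (SE; adjusted p = 0.391, edgeR).

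The nuclear IkB proteins bind NF-kB on DNA and alter which targets are transcribed. Nfkbid, known in mice for B and T cell responses, had 118.1, 67.93, 115.3 and 76.26 CPM in KO 1 to 4, against 42.68, 21.93, 47.49 and 83.21 CPM in WT 1 to 4. WT 4 was above KO 2 and KO 4, and the other wild type libraries were below all 4 labelled KO. Its log2 fold change of 0.95 ± 0.35 was the highest of the 10 (SE; 95% interval from 0.16 to 1.75; adjusted p = 0.391, edgeR). Nfkbiz, a cofactor for a subset of inflammatory genes, had 38.99, 15.14, 23.38 and 19.00 CPM in KO 1 to 4, against 16.22, 13.75, 16.29 and 23.63 CPM in WT 1 to 4. KO 1 stood apart from the rest, KO 2 was below 3 wild type libraries, and the log2 fold change was 0.47 ± 0.29 (SE; adjusted p = 0.494, edgeR). Without KO 1 and KO 3 the Nfkbiz value was -0.05 ± 0.24 (SE; adjusted p = 0.995, edgeR), and the other 9 members kept a positive one.

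**Figure D2:**
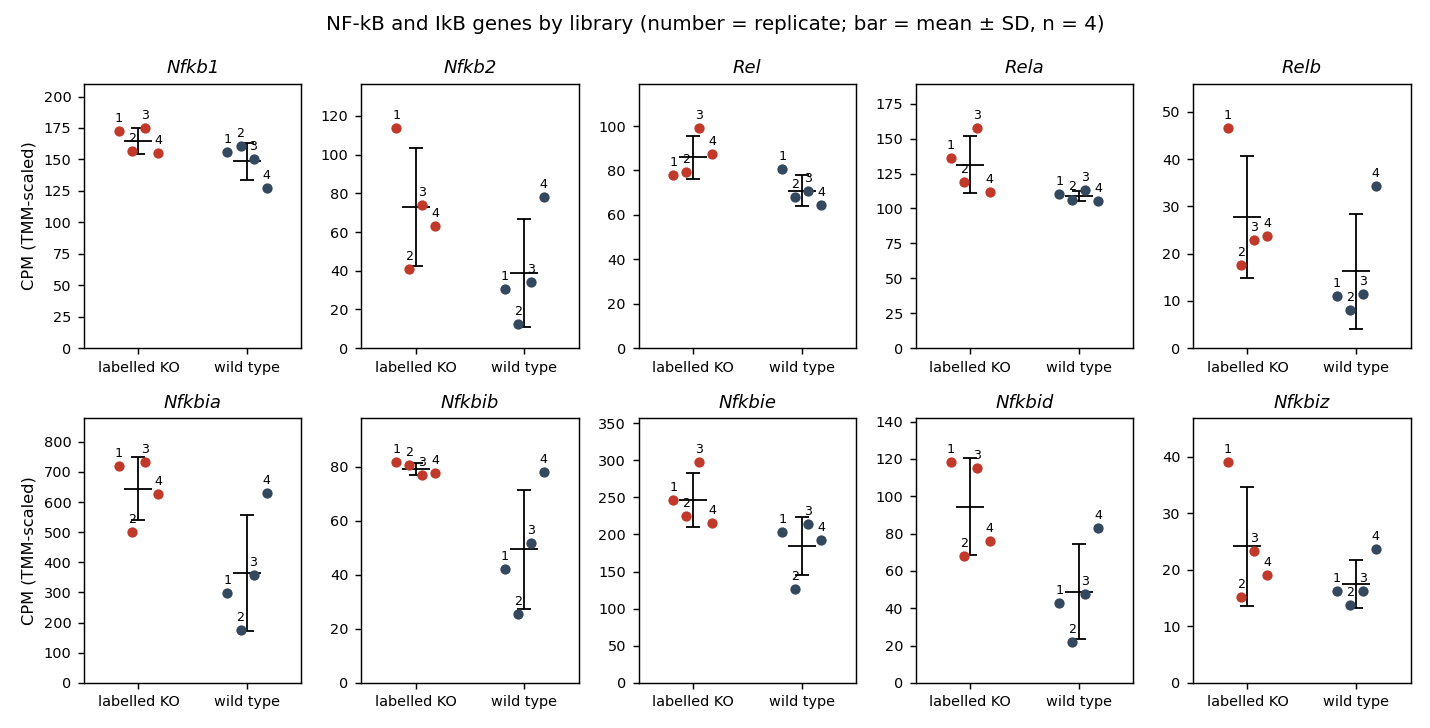
CPM of each gene in each library, labelled KO on the left and wild type on the right of each panel; the numbers are replicates and the bars are mean ± SD (n = 4). WT 4 lies within the range of the libraries labelled KO for Nfkb2, Relb, Nfkbia, Nfkbib, Nfkbid and Nfkbiz, and the groups are apart for Nfkbie alone.

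The calls depended on WT 4. Without it Nfkbia, Nfkbib and Nfkbid passed, with log2 fold changes of 1.22 ± 0.23, 0.99 ± 0.21 and 1.34 ± 0.29 (SE; adjusted p = 0.0493, 0.0493 and 0.0499, edgeR), where 1.86% of the 19506 genes then tested passed. Relb and Nfkb2 had 1.44 ± 0.32 and 1.51 ± 0.39 without WT 4 (SE; adjusted p = 0.0501 and 0.0625, edgeR). With the GC trend removed as well, Nfkbia, Nfkbid and Relb passed at 1.155 ± 0.21, 1.07 ± 0.23 and 1.176 ± 0.28 (SE; adjusted p = 0.0431, 0.0432 and 0.0457, edgeR), where 3.91% of genes did. Nfkbib missed the threshold with the GC trend removed and without WT 4, at 0.64 ± 0.16 (SE; adjusted p = 0.0501, edgeR). With Y-linked counts as a covariate and without WT 4, 6 members passed (Nfkb2, Relb, Nfkbia, Nfkbib, Nfkbie and Nfkbid), where 16.0% of genes did. WT 4 also had the highest summed erythroid marker level, 8634 CPM, against 265 to 2275 CPM in the libraries labelled KO and 2893 to 3919 CPM in WT 1 to 3.

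**Figure D3:**
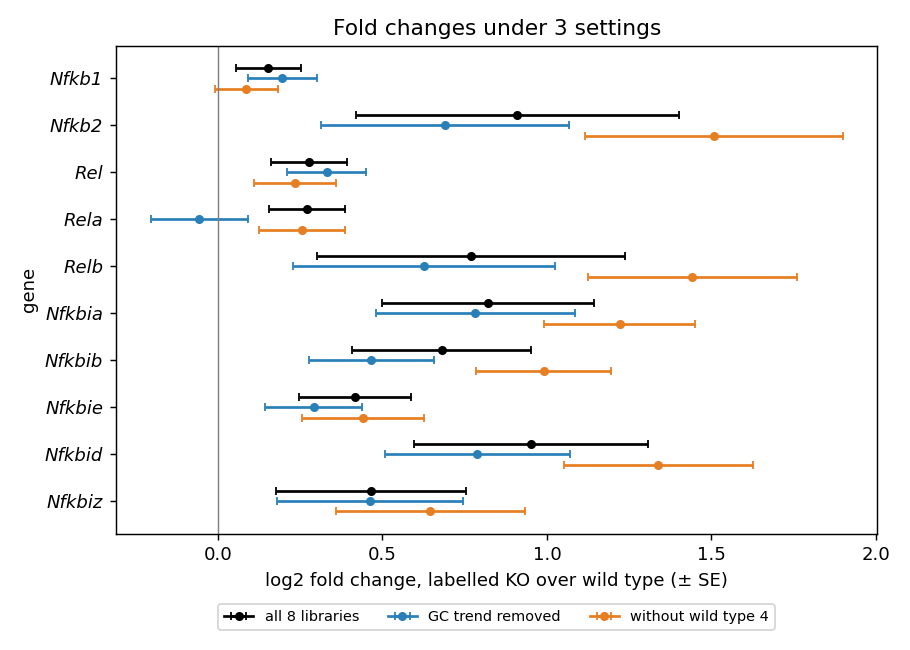
Log2 fold change of labelled KO over wild type with its SE for each gene, from all 8 libraries (black), with the GC trend removed (blue) and without WT 4 (orange). Values of Nfkbia, Nfkbib, Nfkbid, Nfkb2 and Relb are higher without WT 4, and Rela crosses 0 with the GC trend removed.

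The members differed widely in their spread over the 8 libraries. The root mean square log2 deviation was 0.94 for Nfkb2, 0.81 for Relb, 0.76 for Nfkbid, 0.69 for Nfkbia, 0.57 for Nfkbib and 0.46 for Nfkbiz. Nfkbie stood at 0.33, and Rela, Rel and Nfkb1 at 0.19, 0.19 and 0.13. WT 2 was the lowest library for 7 members and WT 4 the lowest for the other 3, Nfkb1, Rel and Rela. KO 1 and KO 3 were each the highest library for 5 members, and both together held the highest pair of values for 5 members, where 10.5% of all genes did. All 10 members were above their mean in KO 1 and in KO 3, 7 in KO 2, 7 in KO 4 and 6 in WT 4, against 1 each in WT 1, WT 2 and WT 3.

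**Figure D4:**
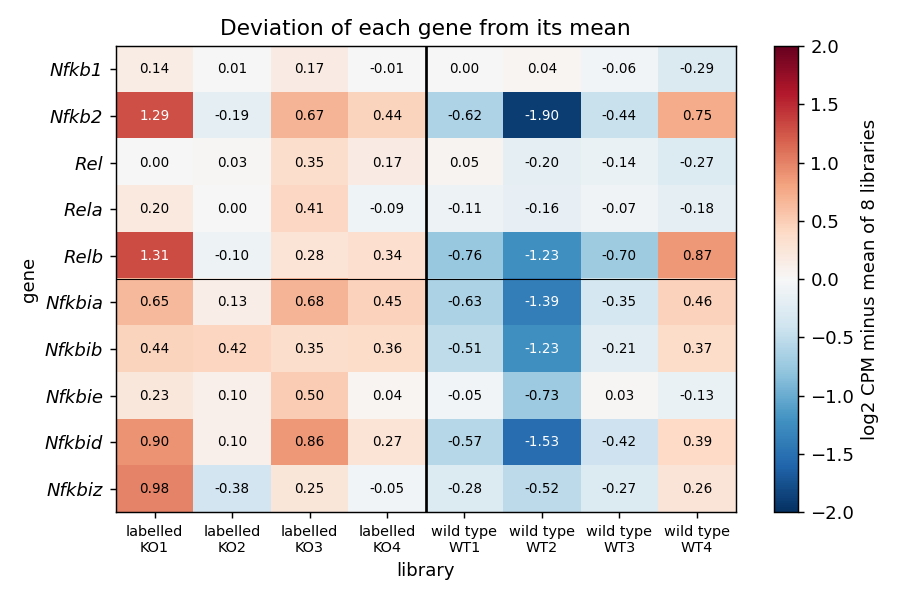
Log2 CPM of each gene minus its mean over the 8 libraries, with labelled KO in the 4 columns on the left and wild type on the right; red is above the mean and blue below. Nfkb2 and Relb stand at 1.29 and 1.31 in KO 1 and at -1.90 and -1.23 in WT 2, and WT 4 is red for 6 genes.

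Transcript GC content and this spread were set side by side. GC was 42.5% for Rel, 44.9% for Nfkb1, 50.1% for Nfkbiz and 52.9% for Nfkbia, and 55.4% to 59.4% for Nfkbie, Relb, Nfkbid, Nfkbib, Rela and Nfkb2, which all lie among the 3762 tested genes of highest GC. Of those genes, 67.7% had a higher fitted value in the libraries labelled KO and 11.7% did so at an unadjusted p under 0.05. Rela, at 59.4%, spanned 0.59 log2 units over the 8 libraries, while Nfkb2, also at 59.4%, spanned 3.19, so genes of like GC differed in spread. What part base composition has in these values was not tested beyond removing the trend. With the GC trend removed, 9 of 10 members still had a higher value in the libraries labelled KO and 4 were at an unadjusted p under 0.05. Of all genes, 11.8% were at that p with the trend removed. Nfkbia then had a log2 fold change of 0.78 ± 0.30, Nfkbid one of 0.79 ± 0.28 and Nfkbib one of 0.47 ± 0.19 (SE; adjusted p = 0.403, 0.403 and 0.408, edgeR).

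**Figure D5:**
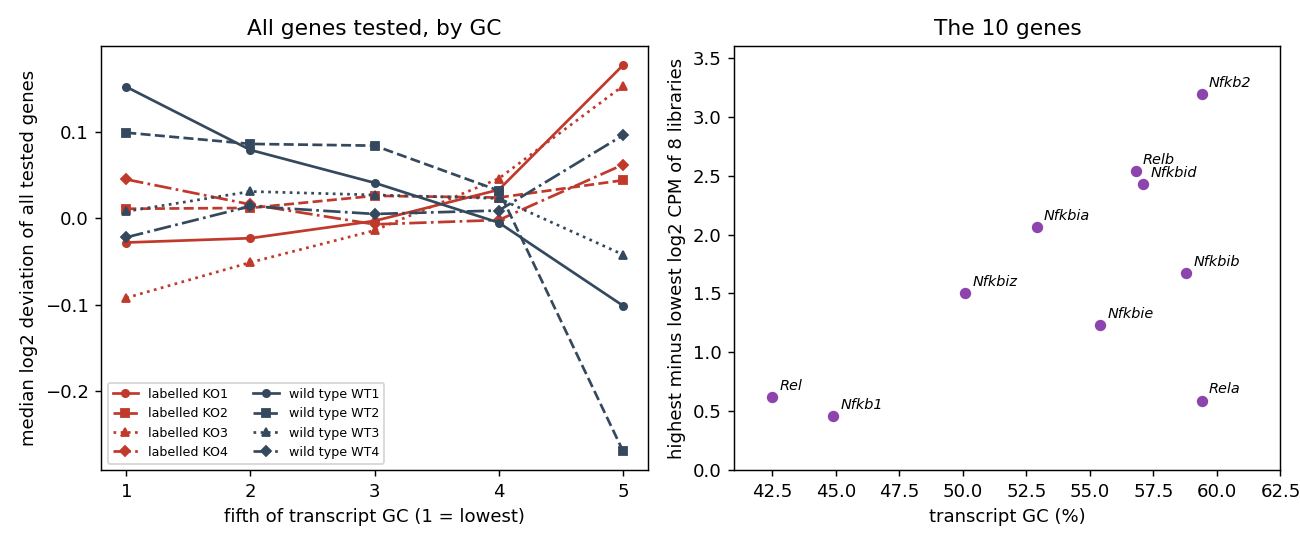
Left, median log2 deviation of all tested genes in each library in 5 equal bins of transcript GC; right, transcript GC of the 10 genes against the difference between their highest and lowest log2 CPM. WT 2 falls to -0.27 and KO 1 reaches 0.18 in the highest bin, and Rel and Nfkb1, with the lowest GC, span 0.62 and 0.46.

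By the pattern over the 8 libraries, the member most like Nfkbid was Nfkbia, with a root mean square difference of 0.14 log2 units, the 8th smallest to Nfkbid among 8827 genes. From the side of Nfkbia, Nfkbid ranked 55th. The 3 genes closest to Nfkbia were Adrm1, Nop53 and Hspa2, at 0.07, 0.08 and 0.09 log2 units, and those closest to Nfkbid were Pdk2, Prkx and Safb, at 0.09, 0.11 and 0.12. Nfkb2 was closest to Isyna1, Gtpbp6 and Apba3, at 0.11, 0.13 and 0.13, and Relb to Nuak2, Alg1 and Dedd2, at 0.07, 0.08 and 0.08. The median gene differed from Nfkbia by 0.69 log2 units. Nfkb2 and Relb differed from each other by 0.30, the 217th smallest difference to Nfkb2 and the 522nd smallest to Relb. Nfkb2 differed from Nfkbid by 0.27, the 122nd smallest to Nfkb2. Its difference from Nfkbia was 0.33, the 297th smallest to Nfkb2 and the 855th smallest to Nfkbia. Nfkbib differed from Nfkbia by 0.195, the 152nd smallest to Nfkbia. Nfkbie was closest to Khsrp, Lyn and Smpd2, at 0.07, 0.07 and 0.075.

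Other cells' markers and early response genes were read beside the members. The sum of 4 plasma cell markers was 224, 93.7, 126 and 134 CPM in KO 1 to 4, against 72.6, 49.6, 69.7 and 182 CPM in WT 1 to 4, so KO 1 and WT 4 were highest and WT 2 lowest, as for Nfkb2 and Relb. Of the markers, Sdc1 and Xbp1 had this order, and Prdm1 and Jchain did not. Prdm1 was highest in KO 3, at 15.4 CPM, and lowest in WT 3, at 5.02 CPM. Of these markers 3 of 4 had higher fitted values in the libraries labelled KO. Jchain had 0.97, 5.28, 0.00 and 3.21 CPM in KO 1 to 4, against 2.60, 7.21, 0.13 and 1.11 CPM in WT 1 to 4, and so was highest in WT 2. The 21 immediate early genes, which handling of cells also induces, summed to 1914 to 3587 CPM in the libraries labelled KO and 1726 to 1994 CPM in wild type. Of the 20 tested, 19 had a higher value in the libraries labelled KO, 8 of them at an unadjusted p under 0.05, with a median log2 fold change of 0.80. Ppp1r15a, Klf4 and Klf2 had the smallest p, with log2 fold changes of 1.44 ± 0.37, 1.09 ± 0.34 and 0.70 ± 0.23 (SE; adjusted p = 0.391 for each, edgeR). KO 3 had the highest of these sums, and WT 2, lowest for 7 NF-kB and IkB genes, had the highest of wild type. Btg2 and Zfp36, at 1280 and 489 CPM, made up most of the WT 2 sum. Both of them, Fos and Klf6 were highest of wild type in WT 2. Jun and Junb, at 12.2 and 18.6 CPM, were instead lowest of all libraries in WT 2. So were Jund, Ier2, Ier5, Hspa1a, Hspa1b and Ppp1r15a. The erythroid sum was 265 to 2275 CPM in the libraries labelled KO and 2893 to 8634 CPM in wild type, with 5 of 7 genes lower at an unadjusted p under 0.05. The natural killer sum was 7.97 to 26.8 CPM in the libraries labelled KO and 30.5 to 42.1 CPM in wild type, with 2 of 7 genes lower at that p. Neither sum overlapped between the groups, whereas those of monocyte markers (34.3 to 146 CPM in the libraries labelled KO and 112 to 199 CPM in wild type) and neutrophil markers (116 to 469 CPM in the libraries labelled KO and 246 to 544 CPM in wild type) did. Mature B cell markers summed to 888.5 to 1089 CPM in the libraries labelled KO and 953.9 to 1247 CPM in wild type. T cell markers summed to 1.12 to 3.01 CPM in the libraries labelled KO and 0.97 to 2.89 CPM in wild type. Dendritic cell markers summed to 3.95 to 16.2 CPM in the libraries labelled KO and 4.86 to 13.3 CPM in wild type. What part these markers have in the members' values was not tested. In bulk RNA, fewer cells of a type and less RNA per cell cannot be told apart.

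The rest of the pathway was read in 6 lists with 89 tested genes. None passed the test. At an unadjusted p under 0.05 there were 9 higher and 1 lower, or 11.2% on either side against 12.6% of all genes. By direction, 5.53% of all genes were higher and 7.11% lower at that p. Of the 89 genes, 64 had a higher fitted value in the libraries labelled KO, where 50.4% of all genes did. Their median log2 fold change was 0.15. The receptors had Tlr4, the endotoxin receptor, at 3.81 ± 0.65 CPM in the libraries labelled KO and 6.60 ± 2.66 CPM in wild type. Tnfrsf13b, a receptor for the B cell survival factors BAFF and APRIL, had 315 ± 20.6 CPM in the libraries labelled KO and 204 ± 80.1 CPM in wild type, and the BAFF receptor gene Tnfrsf13c had 467 ± 26.3 CPM in the libraries labelled KO and 401 ± 48.0 CPM in wild type (SD, n = 4 each). Of the 14 tested receptors, 1 was higher and 1 lower at an unadjusted p under 0.05.

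Of the 22 upstream adaptors and ligases, 18 had higher values in the libraries labelled KO, 4 of them at an unadjusted p under 0.05. Traf5, an adaptor of tumour necrosis factor receptors, had 164.6, 124.7, 182.4 and 138.9 CPM in KO 1 to 4, against 91.39, 80.95, 98.08 and 128.8 CPM in WT 1 to 4. Its log2 fold change was 0.61 ± 0.17 (SE; adjusted p = 0.391, edgeR). Rbck1 and Rnf31 encode 2 subunits of the linear ubiquitin ligase that helps recruit IkB kinase. Rbck1 had a log2 fold change of 0.71 ± 0.24 and Rnf31 one of 0.70 ± 0.29 (SE; adjusted p = 0.391 for both, edgeR). For these genes too WT 2 was lowest and WT 4 the highest of wild type.

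The IkB kinase list had 0 of 11 genes at an unadjusted p under 0.05 and a median log2 fold change of 0.02. Chuk, a catalytic subunit of IkB kinase, had 0.39 ± 0.31, Tab2 0.17 ± 0.10 and Tab3 0.35 ± 0.18 (log2 fold change ± SE). Among 15 negative regulators outside the family, 1 was higher and 0 lower at an unadjusted p under 0.05. That gene was Otud7b, a deubiquitinase, at 0.38 ± 0.16, beside Nlrc3 at -0.77 ± 0.37 and Commd1 at -0.29 ± 0.14 (log2 fold change ± SE). Bcl3, a further nuclear IkB relative, had 6.63 ± 2.30 CPM in the libraries labelled KO and 3.62 ± 1.57 CPM in wild type (SD, n = 4 each). The cofactor genes Crebbp and Pias1 had log2 fold changes of 0.34 ± 0.17 and -0.16 ± 0.09 (SE). Of 21 tested NF-kB target genes, 15 had higher values in the libraries labelled KO, 2 at an unadjusted p under 0.05, with a median of 0.21. They were Gadd45b, a stress response gene with 59.0 ± 6.68 CPM in the libraries labelled KO and 41.9 ± 12.6 CPM in wild type, and Sod2, the mitochondrial superoxide dismutase, with 56.0 ± 2.38 CPM in the libraries labelled KO and 41.9 ± 11.3 CPM in wild type (SD, n = 4 each). Cd69, an activation marker of lymphocytes, had a log2 fold change of 0.50 ± 0.23 (SE; adjusted p = 0.397, edgeR).

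At this spread the data bound the differences of some members more tightly than others. The 95% intervals of 4 members, Nfkb1, Rel, Rela and Nfkbie, lay within 2-fold either way. For Nfkbia the interval ran from 1.07-fold to 2.91-fold, and for Nfkbid from 1.12-fold to 3.35-fold. Each member had 453 to 36503 counts in a library, so the spread between libraries and not the depth limited these intervals.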

How the data were processed

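Counts per gene were deposited by the authors as whole, unnormalized fragment counts. Per the file headers, featureCounts 2.0.1 summed them over the exons of GENCODE M25, counting fragments and every alignment of multi-mapping reads, with no strand setting. The exon length of each gene (unit: other) stands in the same table per the file headers. STAR 2.7.7a, GATK 4.1.9.0 and the mm10 build are named per the submitters' processing notes. Per the labels' protocols, Trizol served for extraction and a SMARTER mRNA-Seq kit for library construction. No aligner setting is given in the sources used here.

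From these counts, symbols were matched by gene identifier to GENCODE M21 on the same build (55141 identifiers named, 346 not). Genes passing filterByExpr (18884) were scaled with TMM factors and tested with edgeR 4.0.16 (robust glmQLFit, then a two-sided glmQLFTest; R 4.3.3), the model holding genotype alone, and p-values were adjusted by Benjamini-Hochberg over all genes. The SE was derived from the F value. CPM and RPKM were computed here. GC was taken from each gene's longest transcript (99.6% of tested genes), and its trend was removed by loess with span 0.5. DESeq2 1.42.0 and limma 3.58.1 were alternatives. The fit was tested on simulated data. Among 12 within-group pairs the lowest chi-square of counts, divided by its degrees of freedom, was 30.4, and all 8 libraries were kept as separate samples.

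The members, lists and alternatives were chosen with earlier results of these data known. The genes named are all 10 members and, in each pathway list, the B lineage list and the immediate early list, the 3 with the smallest unadjusted p. Cd79a, Cd79b, Kit, Xist, the plasma cell markers and the early genes listed for WT 2 were named outside this rule, after their values were seen. The other marker lists are given as sums. The genes most like a member are those with the smallest root mean square difference of centred log2 CPM (prior count 2) among protein-coding genes with at least 5 CPM. Replicate numbers of the titles were checked as pairs (correlations of 0.10, 0.32, 0.20 and -0.11 for numbers 1 to 4). Libraries of like number had the highest correlation for numbers 2 and 3 but not for 1 and 4. The check therefore did not settle whether the libraries are paired.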

Additional observations from a re-analysis of the deposited data

Results flagged for a closer look

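Relb in wild type was set apart by 1 library. WT 4 had 34.35 CPM, and the gap to the next wild type library took up 0.866 of the group's range, above Dixon's 95% critical value for 4 samples. Across the 20 groups of 4 examined (10 genes in both genotypes) this was the only such case. Among 20 groups such a case can arise by chance, but the groups share the same libraries, so no expected number is given.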

How the results depend on the processing

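With 23 alternatives for each of 10 members (17 fixed at the start and 6 chosen after seeing the data), 214 of 230 values kept their direction and their side of the threshold. The values that turned were Nfkbiz at -0.048 without KO 1 and KO 3, and Rela at -0.056 with the GC trend removed, -0.17 without WT 4 as well, and -0.047 with the replicate block as well. Genes past the adjusted p numbered 6 with DESeq2 against 0 in the main test, and 0 to 363 with 1 library left out. Without WT 4 they numbered 763 with the GC trend removed and 3112 with Y-linked counts as a covariate, a term that also parts KO 1 and KO 3 from KO 2 and KO 4. Members past it numbered 0 to 3 with 1 library left out. Without WT 4 they numbered 3 with the GC trend removed and 6 with the Y-linked covariate. Members at an unadjusted p under 0.05 numbered 3 with upper quartile factors, 3 with no count filter, 0 to 7 with 1 library left out, 9 with the Y-linked covariate and 0 without KO 1 and KO 3, against 6 in the main test. Pathway genes at that p numbered 20 with limma-voom, 17 with the replicate block, 17 with the block and the GC trend removed, 3 to 20 with 1 library left out, 33 with the Y-linked covariate, 37 with it and without WT 4, 26 with the GC trend removed and without WT 4, and 1 without KO 1 and KO 3, against 10 in the main test. Over all genes, the share at that p was 12.6% in the main test, 14.2% with upper quartile factors and 7.47% with no count filter. It was 6.07% to 21.9% with 1 library left out, 24.6% with the Y-linked covariate and 2.36% without KO 1 and KO 3. With limma-voom it was 19.9%, with the replicate block 16.2%, and with the block and the GC trend removed 15.4%. Without WT 4 it was 30.4% with the Y-linked covariate and 21.5% with the GC trend removed. The cause of these moves was not tested. The replicate block left 0 members past the adjusted p and 7 at an unadjusted p under 0.05. Whether the titles' numbers pair the libraries was not settled. Members with a higher value in the libraries labelled KO numbered 9 or 10 throughout.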
